A study of Mus musculus with 25 samples.

Results

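Dorsal root ganglia of 25 BXD strains were ordered by the level of 3 peptide genes of itch neurons, Nppb, Sst and Nts, and the 8 strains of highest level were set against the 8 of lowest level. Each strain was scored by the mean of log2(scaled count + 1) of the 3 genes. The high strains, with scores of 8.91 to 10.37 and a median of 9.72, were BXD11, BXD40, BXD48, BXD6, BXD1, BXD21, BXD36 and BXD87. The low strains, with scores of 7.29 to 8.57 and a median of 7.86, were BXD42, BXD13, BXD44, BXD28, BXD55, BXD73, BXD68 and BXD16. The other 9 strains lay between 8.63 and 8.88 and are called intermediate. At the edges, BXD87 at 8.91 was in the high group and BXD89 at 8.88 was not, and BXD42 at 8.57 was in the low group and BXD5 at 8.63 was not. The strains were thus chosen by the measured values of Nppb, Sst and Nts, and the levels of these 3 genes in the groups are a description.

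BXD strains are recombinant inbred mice with C57BL6/J and DBA2/J as parents, and each line is a fixed mosaic of the parental genomes. All mice were 8 weeks old and untreated as far as the labels say, and every strain was represented by 1 RNA sequencing library. The strain names end in TyJ (16 strains) or RwwJ (9 strains), and the labels do not say what these endings stand for. The high group held 6 TyJ and 2 RwwJ strains, the low group 4 and 4, and the intermediate group 6 and 3. The sources used here do not give the sex of the mice or whether animals were pooled. A p-value below measures the spread between strains, in which genotype, animal, dissection and library cannot be told apart.

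The dorsal root ganglia lie beside the spinal cord and hold the cell bodies of the sensory neurons of the body. A small class of their unmyelinated neurons, often called NP3, drives itch. These cells make natriuretic polypeptide B (the product of Nppb, a transmitter to spinal cord neurons of the itch pathway), somatostatin (Sst, a peptide that inhibits its target cells) and, in mice, neurotensin (Nts). They sense their surroundings through the interleukin-31 receptor, made of Il31ra and Osmr, through the leukotriene receptor Cysltr2 and through the serotonin receptor Htr1f. In whole ganglia, fewer cells of a class and less RNA per cell cannot be told apart.

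The promoters of the 3 genes are shown because the genes lie on different chromosomes and yet their levels moved together over the strains. Each window runs from 250 bases before the start of the gene to 50 bases from it, 5′ to 3′ on the strand of the gene, from RefSeq on GRCm38.p6. Capitals mark a TATA box (TATAAA), a cyclic AMP response element (TGACGTCA) or an AP-1 site (TGAGTCA), searched on both strands.
Nppb promoter, chr4:147985650-147985949, plus strand: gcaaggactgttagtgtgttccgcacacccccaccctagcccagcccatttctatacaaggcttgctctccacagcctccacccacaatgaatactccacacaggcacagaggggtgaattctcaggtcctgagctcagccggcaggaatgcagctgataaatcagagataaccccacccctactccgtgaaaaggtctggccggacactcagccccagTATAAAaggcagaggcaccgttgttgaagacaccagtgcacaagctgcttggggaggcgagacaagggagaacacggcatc
Sst promoter, chr16:23890795-23891094, minus strand: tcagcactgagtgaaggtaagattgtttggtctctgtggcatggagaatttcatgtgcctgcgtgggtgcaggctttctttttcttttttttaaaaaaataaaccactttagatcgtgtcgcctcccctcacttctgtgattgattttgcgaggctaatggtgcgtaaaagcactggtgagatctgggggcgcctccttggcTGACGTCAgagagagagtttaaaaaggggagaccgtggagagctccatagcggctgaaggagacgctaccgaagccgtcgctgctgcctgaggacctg
Nts promoter, chr10:102490369-102490668, minus strand: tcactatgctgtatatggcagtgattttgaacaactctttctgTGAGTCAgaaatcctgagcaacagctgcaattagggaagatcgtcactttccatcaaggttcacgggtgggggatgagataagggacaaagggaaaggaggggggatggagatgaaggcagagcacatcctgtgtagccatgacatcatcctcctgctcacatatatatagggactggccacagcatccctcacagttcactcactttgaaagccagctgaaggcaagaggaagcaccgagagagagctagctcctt
The TATA box of Nppb began 31 bases before the start, the TGACGTCA of Sst 48 bases before it and the TGAGTCA of Nts 207 bases before it. None of these 3 motifs was found in more than 1 of the 3 windows. Only these exact letters were searched, so variants of a motif were not counted. Over 32851 RefSeq promoter windows of the same length, TATAAA was in 13.6%, TGACGTCA in 1.79% and TGAGTCA in 5.2%. The core TGTGGT bound by Runx factors was in 16.8% of all windows and had no match in these 3. A match here is a string of letters and no measurement of binding.

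Nppb did not overlap between the groups. In the order of the score, its scaled count was 1319, 1736, 789, 1198, 1084, 855, 965 and 522 in the high strains and 464, 338, 415, 314, 316, 301, 223 and 197 in the low strains. BXD40 was highest and BXD16 lowest. Sst was 661, 679, 1333, 871, 592, 511, 359 and 488 in the high strains and 397, 446, 297, 167, 110, 105, 95 and 77 in the low strains. Here the groups overlapped, since BXD36 at 359 was under BXD42 and BXD13, and 4 low strains fell to 110 or less. Nts was 2662, 1229, 995, 584, 914, 660, 624 and 434 in the high strains and 294, 306, 314, 273, 304, 324, 438 and 245 in the low strains. Its groups touched at 1 strain each, BXD87 at 434 and BXD68 at 438. The strains that led the score differed by gene, with BXD11 far above the others in Nts, BXD48 in Sst and BXD40 in Nppb. BXD5 had 882 of Nppb, above BXD48, BXD21 and BXD87, and 168 of Sst, near the low strains, which placed it in the intermediate group.

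**Figure D1:**
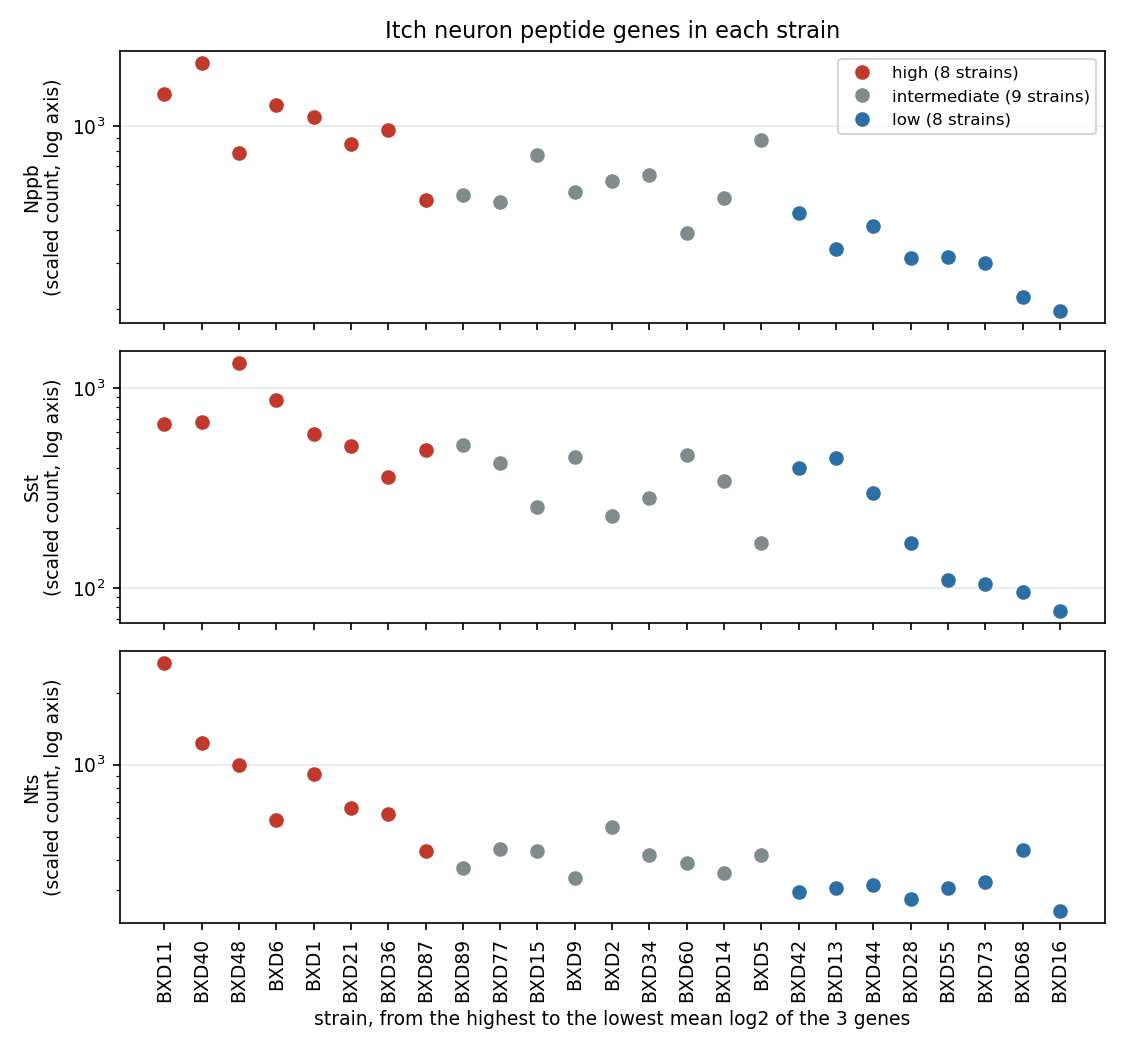
Scaled counts of Nppb, Sst and Nts (log axis) in each of 25 strains, ordered by the mean log2 of the 3 genes; each point is 1 library. The 8 high strains lie between 522 and 1736 for Nppb, all above the 8 low strains at 197 to 464, while Sst and Nts overlap slightly between these groups.

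The TyJ or RwwJ ending is the grouping of the labels that the score did not use. Nppb was 780 ± 411 (SD, n = 16) in TyJ and 446 ± 169 (SD, n = 9) in RwwJ strains, a log2 difference of -0.69 ± 0.29 (SE). It did not pass (adjusted p = 0.306, limma over all genes). Sst, with a log2 difference of -0.19 ± 0.41 (SE), and Nts, with -0.30 ± 0.31 (SE), did not pass either, at adjusted p values of 0.837 and 0.637 in limma. In that comparison 0 of 16152 genes passed in limma (0%) and 2440 (15.1%) had an unadjusted p under 0.05.

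Over all 25 strains the peptide genes varied together and so did the receptor genes, while pairs of a peptide and a receptor were looser. The 3 peptide pairs had Pearson correlations of 0.59 to 0.78, given as a description because these genes made the score. The 6 pairs among Il31ra, Osmr, Cysltr2 and Htr1f ran from 0.54 to 0.76, with a median of 0.69. All 6 passed a permutation test with Benjamini-Hochberg adjustment over the 21 pairs of the 7 genes. The tightest was Cysltr2 with Htr1f (r = 0.76, Spearman's rho = 0.71, permutation p = 1e-05 and 0.0001, adjusted p = 0.000105 and 0.00063), where 1e-05 is the smallest p that 100000 permutations give. Without the 2 strains farthest from the median of Cysltr2 its r was 0.69. The loosest was Il31ra with Osmr, the chains of one receptor (r = 0.54, rho = 0.56, permutation p = 0.00539 and 0.00434, adjusted p = 0.0126 and 0.0101), with r = 0.46 without the 2 farthest strains. Within the TyJ strains the median r was 0.72 for peptide, 0.73 for receptor and 0.21 for mixed pairs, and all 6 receptor pairs passed. Within the RwwJ strains these medians were 0.68, 0.63 and 0.62, so mixed pairs were hardly looser there. Of the 6 receptor pairs, 1 passed for r and 0 for rho in RwwJ.

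Of the 12 pairs of a peptide and a receptor, 3 passed for Pearson's r and 2 for Spearman's rho, and the median r was 0.33. Sst with Il31ra had r = 0.52 and rho = 0.55 (permutation p = 0.00815 and 0.00542, adjusted p = 0.0171 and 0.0114), and r = 0.54 without the 2 farthest strains. Nts with Il31ra had r = 0.50 and rho = 0.42 (permutation p = 0.0105 and 0.0358, adjusted p = 0.0201 and 0.0578), and r = 0.40 without them. Nts with Cysltr2 had r = 0.48 and rho = 0.47 (permutation p = 0.0133 and 0.019, adjusted p = 0.0232 and 0.0362), and r = 0.50 without them. On the values as deposited, Nppb passed with no receptor, its highest r being 0.33 with Il31ra (rho = 0.32, permutation p = 0.106 and 0.118, adjusted p = 0.146 and 0.146). Within the 16 TyJ strains 0 of these 12 pairs passed, with a median r of 0.21. Within the 9 RwwJ strains 2 of the 12 passed by an exact permutation test of r and 0 by that of rho, with a median r of 0.62. Without BXD48 alone, 0 of the 12 passed for r and 1 for rho, with a median r of 0.29. With values corrected for exon length, as described below, 6 of the 12 passed for r and 5 for rho, with a median r of 0.42. Nppb then passed with Il31ra for r (r = 0.48, rho = 0.41, permutation p = 0.0152 and 0.044, adjusted p = 0.0266 and 0.0577) and with Osmr for both (r = 0.45, rho = 0.45, permutation p = 0.0245 and 0.0243, adjusted p = 0.0367 and 0.0465). That peptide pairs correlate more than mixed pairs was not itself tested.

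**Figure D2:**
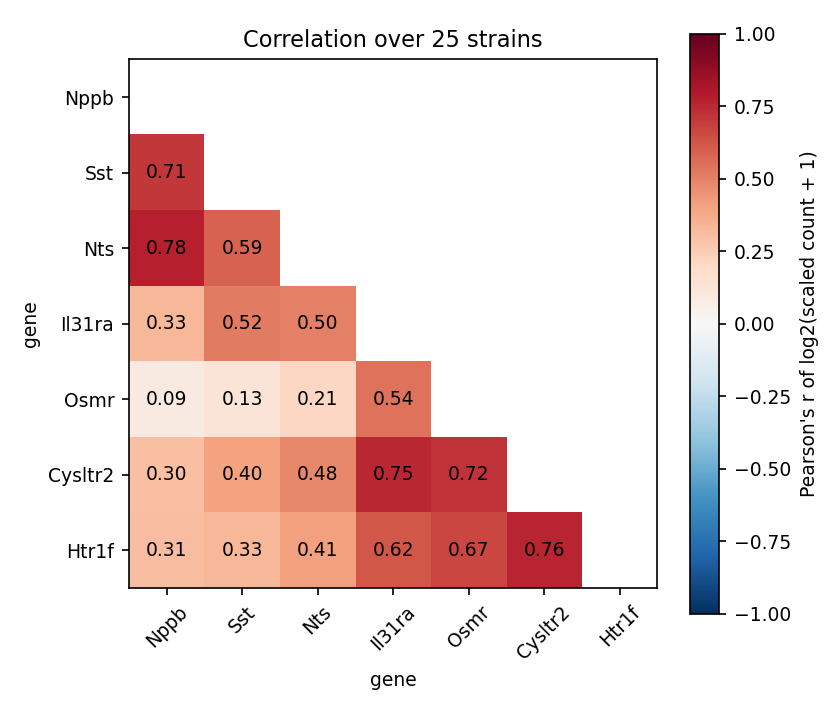
Pearson's r of log2(scaled count + 1) over 25 strains for each pair of the 7 itch neuron genes, on a color scale from -1 to 1. The peptide pairs (0.59 to 0.78) and the receptor pairs (0.54 to 0.76) are darker than most of the 12 mixed pairs (0.09 to 0.52).

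The receptors of the itch neurons were higher on average in the high strains, and none passed the test with 8 strains a group. Il31ra, the chain that binds interleukin-31, was 747, 464, 743, 877, 423, 468, 223 and 438 in the high strains and 268, 441, 508, 348, 369, 281, 418 and 291 in the low strains. The groups overlapped widely, with BXD11, BXD48 and BXD6 above every low strain and BXD36 below every one. The log2 difference was 0.51 ± 0.23 (SE, adjusted p = 0.151, limma). With a slope on the score over all 25 strains in place of the groups, Il31ra passed, at 0.34 ± 0.11 (SE) per unit of the score (adjusted p = 0.0378, limma). In that fit 16.9% of genes passed. With 6 strains a group it passed at 0.72 (adjusted p = 0.0495, limma), and with 10 a group it did not, at 0.37 (adjusted p = 0.229, limma). Without BXD21, BXD36 and BXD40 it was 0.79 and did not pass (adjusted p = 0.26, limma). Cysltr2, which answers cysteinyl leukotrienes, was 156, 117, 190, 159, 137, 164, 85 and 103 in the high strains and 70, 155, 108, 146, 69, 71, 132 and 99 in the low strains. Its log2 difference was 0.41 ± 0.21 (SE, adjusted p = 0.19, limma), with 4 high strains above every low strain.

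Htr1f, a serotonin receptor, had a lowest, median and highest value of 72, 91 and 120 in the high strains and of 55, 76.5 and 119 in the low strains, a log2 difference of 0.25 ± 0.15 (SE, adjusted p = 0.255, limma). Osmr, the partner of Il31ra that also serves oncostatin M, was 1018, 1219.5 and 1524 against 894, 1158.5 and 1506, a log2 difference of 0.07 ± 0.10 (SE, adjusted p = 0.667, limma). The ranges of both genes overlapped almost fully. In the intermediate strains the median was 418 for Il31ra, 110 for Cysltr2 and 78 for Htr1f, each between the medians of the high and low strains, and 1044 for Osmr, under both. The kinase Jak1 and the shared receptor chain Il6st, through which these cytokine receptors signal, differed by -0.09 ± 0.07 and -0.01 ± 0.11 (SE). The receptor and signalling list thus had 0 of 6 members called, against 8.5% of the 16149 genes tested. In the 9 intermediate strains, whose scores spanned only 8.63 to 8.88, the slopes of Il31ra, Osmr, Cysltr2 and Htr1f on the score were -1.80 ± 1.72, -1.92 ± 1.13, -2.0 ± 1.41 and -1.50 ± 1.37 (SE) log2 units per unit of the score. In those strains 0 genes passed in limma (0%) and 808 (5%) had an unadjusted p under 0.05.

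Over all genes outside the score, 1373 passed between the high and low strains (limma, adjusted p under 0.05). Of these, 885 (5.48%) were higher in the high strains and 488 (3.02%) lower, so 64.5% of the calls were higher. When each library was rescaled to the same total, 754 were higher and 673 lower (52.8% higher). The ranges of the groups did not overlap for 30 genes (0.186%). The count of calls changed with single strains: leaving out BXD16, BXD21, BXD28, BXD36, BXD40 or BXD68, each alone, left 0 genes called. In these fits 3788 to 4242 genes had an unadjusted p under 0.05, against 4863 (30.1%) with all 16 strains. The log2 differences of single genes moved less. Leaving out each strain in turn gave 0.57 to 0.65 for Mien1, -0.52 to -0.42 for Nefh and -0.49 to -0.35 for Kcns1. Leaving out BXD73 left 315 calls and leaving out BXD13 left 470, while leaving out BXD48 gave 2333 (14.4%) and leaving out BXD87 gave 2823. With TyJ or RwwJ as a covariate 0 genes passed in limma (3898 before adjustment at 0.05). Permutation of rank sums called 0 genes as well (0%), with 4458 (27.6%) under 0.05 before adjustment. Among strains of the TyJ ending alone, 1858 passed (11.5%). A difference of the effect between the endings was called for 1 gene (0.00619%), which is not among those named here.

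The genes that went with the peptides split by the length of their transcripts. Genes called higher had a median exon length of 2082 bases and genes called lower one of 6832 bases, against 4303 bases over all genes tested. In the quartile of shortest genes, of 57 to 2670 bases, 551 genes (14.1%) were called higher and 27 (0.69%) lower, and the median log2 difference was 0.17. In the quartile of longest genes, from 6675 bases, 32 (0.818%) were higher and 251 (6.42%) lower, and the median was -0.13. The peptide genes are themselves short, with exon lengths of 781 bases for Nppb, 721 for Sst and 1248 for Nts. The receptor genes varied in length, with 2579 bases for Htr1f, 2872 for Cysltr2, 5673 for Il31ra and 12113 for Osmr.

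**Figure D3:**
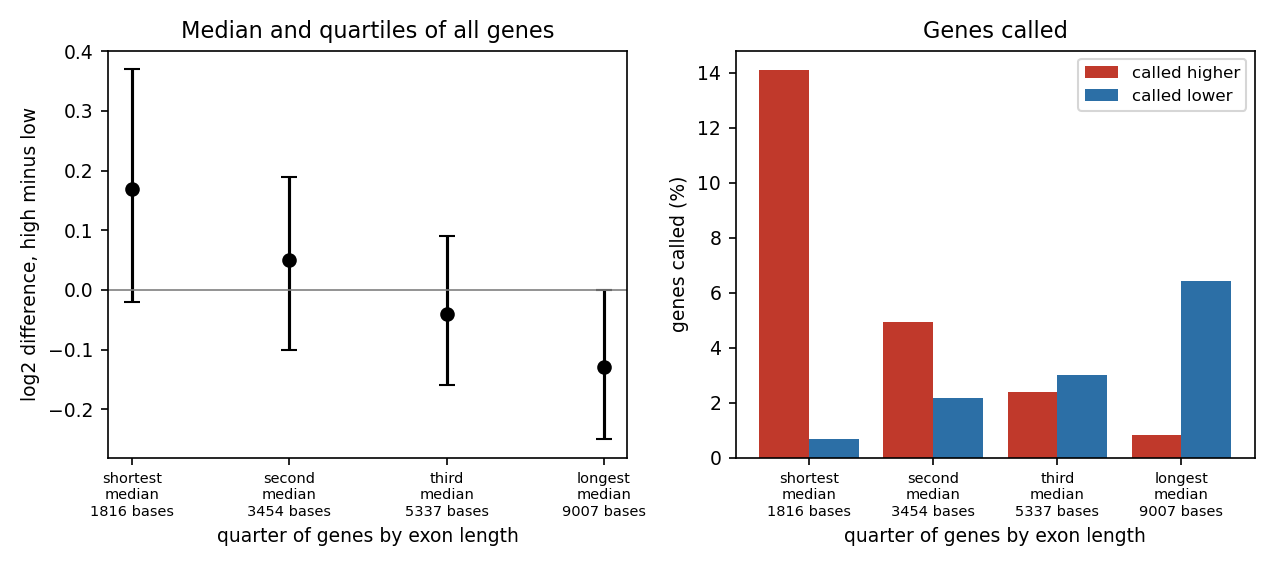
Left, median and quartiles of the log2 difference between high and low strains in each quartile of genes by exon length; right, percent of genes called higher and lower in each. The median falls from 0.17 in the shortest to -0.13 in the longest genes, and calls pass from mostly higher (14.1%) to mostly lower (6.42%).

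To measure this in each library, the median log2 deviation of the shortest quartile from the mean over strains was subtracted from that of the longest quartile. This long-minus-short level ran from -0.43 to 0.14 in the high strains (median -0.14) and from -0.06 to 0.29 in the low strains (median 0.20), so the groups overlapped. BXD40 and BXD36 at -0.43, BXD21 at -0.36 and BXD1 at -0.25 were lowest, while BXD48 at 0.14, BXD87 at 0.10, BXD6 at -0.01 and BXD11 at -0.03 lay within the range of the low strains. The mean was -0.16 ± 0.24 (SD, n = 8) in the high and 0.16 ± 0.12 (SD, n = 8) in the low strains, a difference of -0.31. Without BXD21, BXD36 and BXD40 the difference was -0.16. The measure was made after the split by length was seen between these strains, so it describes that split in each library and no test is given. Read depth differed too: the reads estimated from the steps between low values were 21790000 to 27500000 in the high strains (median 22480000) and 20610000 to 40120000 in the low strains (median 27180000). The part of depth in the result was not tested.

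Over 25 strains, also as a description, the score and the long-minus-short level had a Pearson correlation of -0.60 and a Spearman correlation of -0.65. Nppb had r = -0.76 and rho = -0.75, with r = -0.70 without the 2 strains farthest from the median level, -0.75 within TyJ and -0.46 within RwwJ. Nts had r = -0.48 and rho = -0.51, with r = -0.36 without those strains, -0.53 within TyJ and 0.10 within RwwJ. Sst had r = -0.41 and rho = -0.44. The 4 receptors had r of 0.10 to 0.27. These measures share the library and its depth.

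**Figure D4:**
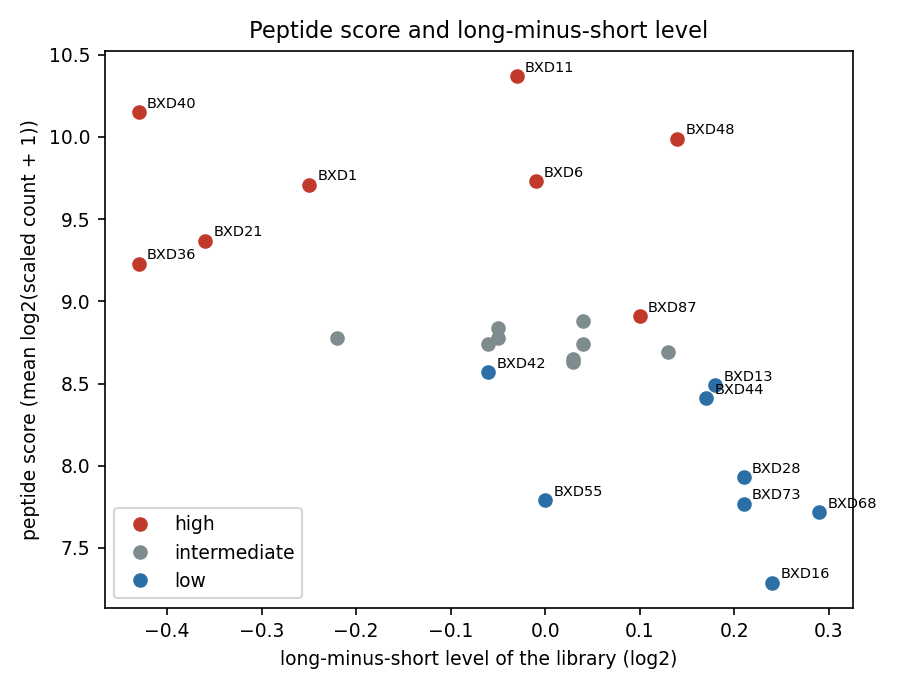
Peptide score (mean log2(scaled count + 1) of 3 genes) against the long-minus-short level of each library (log2); each point is 1 strain. BXD40, BXD36 and BXD21 combine a high score with the lowest long-minus-short levels, and BXD48 has a high score at 0.14.

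With the long-minus-short level as a covariate, 0 genes were called between the groups in limma (0%) and 1277 (7.91%) had an unadjusted p under 0.05. The receptor differences were larger in that fit, at 0.99 ± 0.26 (SE) for Il31ra, 0.75 ± 0.25 for Cysltr2, 0.49 ± 0.17 for Htr1f and 0.24 ± 0.13 for Osmr on the log2 scale. When instead each library was corrected for its own trend over exon length, 501 genes were called (3.2%), 340 (2.17%) higher and 161 (1.03%) lower. The corrected differences were 0.55 ± 0.23 (SE) for Il31ra, 0.31 ± 0.22 for Cysltr2, 0.15 ± 0.16 for Htr1f and 0.24 ± 0.10 for Osmr, and none passed. The correction thus lowered Cysltr2 and Htr1f and raised Osmr, while the covariate raised all 4.

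Among the other sensory neuron classes, large-diameter neurons, the myelinated cells of touch and body position, had the most members that fell in the high strains: 0 of 16 were called higher and 4 lower, against 5.48% and 3.02% of all genes, with a median of -0.27 against -0.01 over all genes. With the long-minus-short level as a covariate the median of this list was -0.09. Neurofilament heavy chain, Nefh, had a lowest, median and highest value of 46069, 58217 and 77520 in the high strains and of 63234, 80312 and 96515 in the low strains. Of the high strains, 6 were below every low strain, and the log2 difference was -0.46 ± 0.11 (SE, adjusted p = 0.0263, limma). Whrn, the scaffold protein whirlin, was 260, 325.5 and 507 against 441, 552.5 and 706, a log2 difference of -0.69 ± 0.14 (SE, adjusted p = 0.0233, limma). Runx3, a transcription factor of proprioceptive neurons, was 115, 131 and 226 against 159, 222.5 and 364, a log2 difference of -0.65 ± 0.18 (SE, adjusted p = 0.0367, limma).

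Nefm, the medium neurofilament, was the fourth call, at -0.41 ± 0.12 (SE, adjusted p = 0.0471, limma), and it did not pass without BXD48 (adjusted p = 0.0539, limma), where Pvalb did. Not every member went down: parvalbumin, Pvalb, a calcium buffer of proprioceptors with short exons, was 3078, 4152.5 and 6291 in the high and 2159, 2973.5 and 4393 in the low strains. Its log2 difference was 0.52 ± 0.18 (SE, adjusted p = 0.0758, limma), 0.59 without BXD48 (adjusted p = 0.0407, limma) and -0.02 ± 0.15 with the covariate. The neurotrophin receptor Ntrk3 differed by -0.46 ± 0.23 (SE) and by 0.30 ± 0.15 with the covariate. With length-corrected values Nefh and Whrn passed (adjusted p = 0.0379 and 0.0338, limma) and Runx3 and Nefm did not (adjusted p = 0.0553 and 0.0855, limma).

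Of the Mrgpra3 class, another itch neuron class (NP2), 1 of 8 members was called higher and 1 lower, against 5.48% and 3.02% of all genes. In mean 6 of 8 were higher, against 49.1% of all genes, with a median of 0.32, and 0.08 with the long-minus-short covariate. Nmb, the peptide neuromedin B, was 3687, 5475.5 and 7381 in the high and 3669, 4054.5 and 4787 in the low strains. Its log2 difference of 0.44 ± 0.12 (SE, adjusted p = 0.0405, limma) was 0.07 ± 0.09 with the long-minus-short covariate. Gfra1, a receptor for the growth factor GDNF, was 2330, 2459 and 2898 against 2477, 3214 and 3878, a log2 difference of -0.33 ± 0.08 (SE, adjusted p = 0.0309, limma) and -0.28 ± 0.11 with the covariate. Mrgpra3 itself, the receptor that names the class, differed by 0.40 ± 0.22 (SE, adjusted p = 0.226, limma) and by -0.15 ± 0.22 with the covariate.

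Of the Mrgprd class, nociceptors without classical peptides (NP1), 1 of 13 was called higher and 0 lower, near the 5.48% and 3.02% of all genes. In mean 11 of 13 were higher, against 49.1% of all genes, with a median of 0.13, and 0.24 with the covariate. Lpar3, a receptor for lysophosphatidic acid, was 1834, 2208 and 2580 in the high and 1093, 1564 and 2020 in the low strains, and 5 high strains lay above every low strain. Its log2 difference was 0.46 ± 0.12 (SE, adjusted p = 0.0317, limma) and 0.47 ± 0.16 with the covariate. Mrgprd, the receptor that names the class, differed by 0.05 ± 0.23 (SE). The 7 markers of C-low-threshold mechanoreceptors, the fibers of gentle touch, were all higher in mean, against 49.1% of all genes, and 0 of 7 were called. Their median of 0.33 was 0.16 with the covariate and 0.11 without BXD21, BXD36 and BXD40. Of 12 pan-neuronal genes 1 was called higher, against 5.48% of all genes. It was Gap43, a protein of growing axons, at 0.30 ± 0.07 (SE, adjusted p = 0.025, limma), and at 0.10 ± 0.06 with length-corrected values. The median of that list was -0.05.

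Neuropeptides outside the score were higher in mean in 14 of 16 measured genes, against 49.1% of all genes. Their median log2 difference was 0.44, and 1 of 16, Nmb, was called, against 5.48% called higher over all genes. Their median exon length was 1311 bases, and the median was 0.17 with the long-minus-short covariate. Of the 12 peptidergic nociceptor genes listed, 8 were higher and 4 lower in mean, and 0 were called. The median of that list was 0.17, and -0.05 with the covariate. Calca, Calcb and Tac1 of this list, chosen after their values were seen, encode the calcitonin gene-related peptides and substance P. They differed by 0.44 ± 0.18, 0.42 ± 0.16 and 0.35 ± 0.17 (SE) on the log2 scale, and none was called. With the covariate they differed by -0.12 ± 0.14, -0.04 ± 0.12 and -0.06 ± 0.17. Of the enzymes and granule proteins that process peptides, 0 of 15 were called higher and 2 lower, against 5.48% and 3.02% of all genes. Furin, a convertase that cleaves precursors, was 721, 853.5 and 958 against 896, 1049.5 and 1152, a log2 difference of -0.31 ± 0.06 (SE, adjusted p = 0.0233, limma). The convertase Pcsk1 differed by -0.33 ± 0.09 (SE, adjusted p = 0.0391, limma). With length-corrected values neither passed (adjusted p = 0.0784 for Furin and 0.0683 for Pcsk1, limma). Of the receptors of the 3 peptides, 0 of 10 measured were called, with a median of -0.18.

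Ion channel genes lay lower in mean in the high strains in most members and had few calls. Of 25 potassium and HCN channel genes 19 were lower in mean and 6 higher, against 49.1% higher in mean over all genes. Of the 25, 1 was called higher and 1 lower, near the 5.48% and 3.02% of all genes. Their median of -0.24 turned to 0.13 with the long-minus-short covariate, with 17 of 25 then higher. Kcns1, a silent potassium channel subunit, was 986, 1439 and 1973 in the high and 1633, 1922.5 and 2339 in the low strains, with 7 high strains below every low strain. Its log2 difference was -0.43 ± 0.11 (SE, adjusted p = 0.0303, limma) and -0.41 ± 0.14 with the covariate, but -0.18 with the spinal cord and muscle scores as covariates. Kcnip4, a partner of Kv4 channels, differed by 0.34 ± 0.09 (SE, adjusted p = 0.0317, limma). Voltage-gated sodium channels had 0 of 13 calls and voltage-gated calcium channels 0 of 14. Both lists had a median of -0.17, which was 0.20 for sodium and 0.13 for calcium channels with the covariate. Of 13 TRP channels 1 was called lower, against 3.02% of all genes. It was Trpm2, an oxidant-gated and heat-gated channel, at -0.27 ± 0.08 (SE, adjusted p = 0.0439, limma) and -0.11 ± 0.08 with the covariate. Of 21 sensory transcription factors 2 were called lower, also against 3.02% of all genes. They were Runx3 and Cux2, the second at -0.67 ± 0.19 (SE, adjusted p = 0.0403, limma) and -0.10 ± 0.14 with the covariate.

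In the intermediate strains the medians of the genes called from these lists lay between those of the high and low strains for Nefh (65524), Whrn (423), Runx3 (169), Lpar3 (1881), Nmb (4762), Gfra1 (2912) and Kcns1 (1580). These genes were called for differing between high and low strains. Medians in between are thus likely in any case and are no support. Their slopes on the score within the intermediate strains were, in that order, 0.11 ± 1.10, -1.72 ± 0.94, -2.42 ± 1.01, 1.25 ± 0.97, 1.47 ± 0.57, -0.23 ± 0.97 and -0.83 ± 0.83 (SE). The slope of Nefh was opposite in sign to its group difference, and 0 genes passed in limma in those strains. The largest differences in the lists often belonged to genes that were not called. Tac2, which encodes neurokinin B, was 3, 33 and 257 as lowest, median and highest in the high strains and 0, 2 and 87 in the low strains, a log2 difference of 2.81 ± 0.89 (SE, adjusted p = 0.0564, limma). It was 1.10 with the spinal cord and muscle scores as covariates. Scg5, a chaperone of the convertase Pcsk2, was 2283, 8161 and 24836 against 2048, 2459 and 13794, a wide spread in both groups, and its difference was 0.73 ± 0.67 (SE, adjusted p = 0.47, limma). Kcna2, a potassium channel of axons, differed by -0.60 ± 0.28 (SE) and by 0.31 ± 0.18 with the long-minus-short covariate. Scn1a, a sodium channel of large neurons, differed by -0.52 ± 0.19 and by 0.05 ± 0.15, and the calcium channel Cacna1a by -0.42 ± 0.14 and by 0.05 ± 0.09. The cold sensor Trpm8 differed by -0.33 ± 0.19, the neurotensin receptor Ntsr1 by 0.64 ± 0.42, the RNA sensor Tlr7 by 0.53 ± 0.18 and the Mrgpr family receptor Mrgprb4 by 0.45 ± 0.28 (SE), and none passed.

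**Figure D5:**
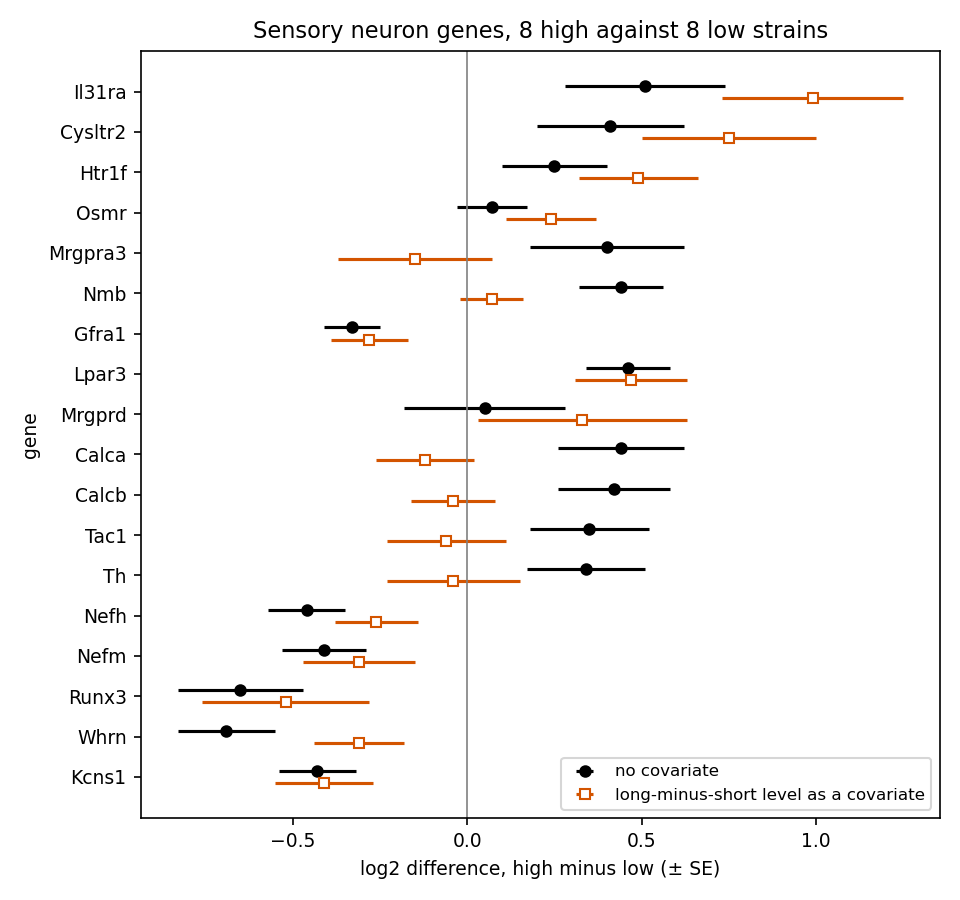
Log2 difference (high minus low, 8 strains each, bars are SE) of 18 sensory neuron genes, without a covariate (filled circles) and with the long-minus-short level as one (open squares). Il31ra goes from 0.51 to 0.99, Calca from 0.44 to -0.12, and Nefh and Kcns1 are below 0 in both fits.

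Genes of smallest p outside the lists were mostly short and higher in the high strains or long and lower. The 12 higher genes of smallest p all had an adjusted p of 0.0233 in limma. They included Mien1 (2329, 3100 and 3214 against 1579, 1918 and 2311 as lowest, median and highest), with a log2 difference of 0.60 ± 0.09 (SE), 0.27 ± 0.06 with length-corrected values, and no overlap. Others were Mrpl41 of the mitochondrial ribosome, Ndufb9 of respiratory complex I, Coa3 of cytochrome oxidase assembly, Eif3h of translation initiation, Gabarap of autophagy, Atp6v0b of the proton pump, Bex4, Ddt, Flywch2, Tmem141 and 2810004N23Rik. The last, with exons of 6324 bases, was an exception in length. Its values were 394, 461 and 550 against 332, 354 and 386, without overlap. With length-corrected values 8 of these 12 passed, and Mrpl41, which went from 0.50 to 0.17, Ddt, Flywch2 and Tmem141 did not.

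Among the 12 lower genes of smallest p, Ssc5d, a secreted scavenger receptor protein, was 87, 109.5 and 171 in the high and 174, 206 and 357 in the low strains, without overlap. Its log2 difference was -0.91 ± 0.15 (SE, adjusted p = 0.0233, limma), and -0.75 ± 0.20 with the covariate. Lrrk2, a kinase with exons of 11834 bases, was 984, 1122 and 1461 against 1338, 1661 and 1882, a log2 difference of -0.52 ± 0.09 (SE). P2rx5, an ATP-gated channel subunit, with the shorter exon length of 2395 bases, differed by -0.64 ± 0.12 (SE), and Necab1, a neuronal calcium-binding protein, by -0.35 ± 0.07 (SE). The others were Etl4, Atr, Zfp316, Mob3b, Ralgapa2, Plekha2, Chst2 and Atn1. All 12 had an adjusted p of 0.0233 in limma. With length-corrected values 9 of them passed, and Etl4, Atr and Ralgapa2 did not.

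Marker genes of spinal cord and muscle, tissues outside the ganglion, were higher in mean in the high strains, with 1 call and ranges that overlapped. All 10 spinal cord genes were higher in mean in the high strains (median 2.11), against 49.1% of all genes. Mobp, a myelin gene of oligodendrocytes, was called, at 3.12 ± 0.86 (SE, adjusted p = 0.0387, limma). The summed level of the 10 genes was 426 to 18797 (median 1849.5) in the high and 329 to 4907 (median 516.5) in the low strains, with BXD48 at the top. Their mean log2(scaled count + 1) was 3.16 to 10.14 (median 6.41) in the high and 2.94 to 8.21 (median 3.53) in the low strains. By that mean BXD87 was the lowest high strain, and BXD44 at 8.21 and BXD42 at 5.67 were the highest low strains. Of the single values, 3 of 80 were 0 in the high and 7 of 80 in the low strains. Mog, a myelin gene that defines oligodendrocytes, ran from 2 to 1018 in the high and from 1 to 259 in the low strains, and Slc32a1, the transporter of inhibitory neurons, was at 0 in some strains of both groups. All 10 skeletal muscle genes were higher in mean (median 1.88) with 0 called. Their summed level was 2880 to 30140 (median 8221) against 394 to 30731 (median 3076). Of blood and immune cells, some of which reside in the ganglion, macrophage genes were higher in mean in 10 of 10 (median 0.49, 1 called), and erythroid genes in 6 of 6 (median 0.71, 1 called). Over all genes 49.1% were higher in mean and 5.48% were called higher. With the long-minus-short level as a covariate the medians were 0.24 for macrophage genes and -0.13 for erythroid genes. With the spinal cord and muscle scores as covariates 0 genes were called in limma, 2217 at an unadjusted p under 0.05. Il31ra then differed by 0.39, Nefh by -0.30 and Lpar3 by 0.44 on the log2 scale. Other genes moved further toward 0, to -0.29 for Runx3, -0.15 for Nefm and -0.18 for Kcns1. Since Sst and Nts are also made in the spinal cord, spinal tissue and itch neurons cannot be told apart as their source here. Glial genes of the ganglion had medians of 0.24 for satellite glia and -0.01 for myelinating Schwann cells and 0 calls in each.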

How the data were processed

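RNA sequencing libraries of dorsal root ganglia from 25 BXD strains were made from Trizol RNA with the TruSeq RNA v2 kit, per the labels' protocols; the kit does not mark strand. The submitters' processing notes name TopHat2 2.0.9, HTSeq and CASAVA 1.8.0 as tools and both mm9 and NCBIM37 as builds, per the labels. The deposited values are a normalized score: whole numbers scaled by the authors. The third quartile of the 16220 listed genes had a median of 1478 over the libraries. The scaling tool is not given in the sources used here. No count model was fitted. Totals were 24637919 to 26860283 per library, and reads estimated from the step between low values ran from 19990000 to 40120000, with the least clear steps in BXD44 and BXD36.

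Gene symbols and exon lengths came from GENCODE M21, of a later build, for 15697 identifiers. Values were analysed as log2(value + 1) for the 16149 genes outside the score with a mean of at least 10, with limma 3.58.1 (trended prior, R 4.3.3), two-sided, Benjamini-Hochberg adjustment over all of them and a threshold of 0.05. A positive difference is higher in the high strains. Differences on this scale understate changes of low genes. Correlations used 100000 permutations, or every pairing for 9 strains. For length-corrected values, the running median of a library's deviations over genes ordered by exon length was subtracted. The limma step was checked on simulated data. The members and gene lists were chosen with earlier results of these data known, and the length measures after seeing them. Named genes were the 4 receptors, the 12 of smallest p in each direction, up to 6 called members of each neuronal list and its largest difference, and the 2 highest genes of each other list; Jak1, Il6st, Calca, Calcb, Tac1, Mrgpra3, Mrgprd, Pvalb, Ntrk3, Th, Fn1, Mog and Slc32a1 were added after their values were seen. Alternatives covered scaling, pseudocount, filter, test, covariates, group size, form of the score and left-out strains. Genes with close copies, such as the ribosomal protein genes and the Mrgpr family, and genes with antisense partners are uncertain, since reads may be shared.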

Additional observations from a re-analysis of the deposited data

How the results depend on the processing

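The count of genes called between high and low strains, 1373, was within 1.5 times of itself with a pseudocount of 5 (1360) or 0.5 (1372), no filter on low genes (1371), a filter at a mean of 50 (1554), rescaling to the same total (1427), 6 (1175) or 10 (1282) strains a group, TyJ strains only (1858), the myelinating Schwann cell score as a covariate (1394), and the score without Nts (1418) or from z-scores (1373). It was 875 with no trend, 2818 with array weights, 2737 as a slope over 25 strains, 2526 with all 25 strains in the fit, 2060 with the pan-neuronal score as a covariate, 2333 without BXD48, 2483 with the score without Sst and 501 with length-corrected values. It was 0 with TyJ or RwwJ as a covariate, with the spinal cord and skeletal muscle scores, with the long-minus-short level, without BXD21, BXD36 and BXD40 together (2097 unadjusted), with the score without Nppb (3694 unadjusted) and by the rank-sum permutation test. Leaving out 1 strain at a time gave 0 to 2823. The cause of these changes was not tested. Correlations past the threshold were 12 of 21, 15 with length-corrected values, and 4 within RwwJ strains by an exact test. The 42 named genes that passed kept their direction in all 1680 values under 40 alternatives, and 605 of these values did not pass. The alternatives refit largely the same strains in which these genes were called, so a kept direction is no independent support. No paired analysis was possible because each strain had 1 library and no replicate number links strains across groups. Low depth limits genes near the minimum of 10.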

Other observations

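Genes that share the start of a symbol, picked after their values were seen and therefore given without a test, held many of the genes called higher. Of 75 Rpl or Rps genes, which encode ribosomal proteins, 68 were called higher in the high strains and 0 lower, against 5.48% called higher over all genes. Their median log2 difference was 0.55, and 0.36 with length-corrected values, of which 34 were called. With the long-minus-short level as a covariate it was 0.19, with 0 called. Reads of these genes may be shared with pseudogene copies. Of 37 Nduf genes of respiratory complex I, 20 were called higher, of 16 Cox genes 8, and of 76 Mrpl or Mrps genes of the mitochondrial ribosome 37, with 0 lower in each. With the covariate the medians of these 3 groups were 0.04, 0.12 and 0.06. Without BXD21, BXD36 and BXD40 the medians were 0.47 for Rpl or Rps, 0.24 for Nduf, 0.38 for Cox and 0.20 for Mrpl or Mrps, with 0 called in each.

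Posterior Hox genes, which mark the level of the body axis a ganglion comes from, were lower in mean in the high strains in 6 of 6 measured genes, with a median log2 difference of -0.24 and 0 called. Anterior Hox genes went mostly the same way, with 7 of 9 lower in mean and a median of -0.18. Over all genes 49.1% were higher in mean. Hoxa9 had a lowest, median and highest value of 617, 759 and 889 in the high and of 724, 913.5 and 1099 in the low strains, a log2 difference of -0.25 ± 0.10 (SE, adjusted p = 0.105, limma). Of 8 genes of fibroblasts and matrix, 1 was called lower and 0 higher, against 3.02% and 5.48% of all genes, with a median of -0.08. The call was Fn1, fibronectin, at -1.22 ± 0.36 (SE, adjusted p = 0.0452, limma), and at -0.68 without BXD21, BXD36 and BXD40. The abundant members Apod and Dcn differed by 0.44 ± 0.19 and 0.21 ± 0.21 (SE), and neither passed.

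Lists of other states and cells had 0 calls: injury response (14 genes, median 0.24), adipose tissue (6, 0.63), lymphocytes and MHC class II (7, 0.41), endothelium and mural cells (8, 0.10), mast cells (5, -0.25), sympathetic neurons (2, -0.11), glucocorticoid targets (8, 0.04), the circadian clock (10, 0.00) and immediate early genes (10, -0.09). Anterior Hox genes had 0 of 9 calls and a median of -0.18, and other itch and cytokine signalling genes 0 of 16 and a median of -0.02.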
